A study of Caenorhabditis elegans with 10 samples.

Results

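The genes described here are 9 saposin-like genes of C. elegans, spp-1, spp-2, spp-3, spp-5, spp-8, spp-9, spp-10, spp-14 and spp-18, out of 46907 genes with an entry in the count tables and 31 genes with an spp symbol. They were taken by name, and the set was drawn up around spp-9 because of its counts in these same libraries, which were very low in unc-104(R9Q) animals and high again when a second change, T102I, was present. The set was thus selected on the values of R9Q against wild type and of T102I against R9Q, which are given as a description, with no test, and spp-9 is not tested in any comparison. Of the 9 genes, 5 passed the filter on low counts (spp-2, spp-3, spp-8, spp-9 and spp-10), 1 had a few counts (spp-14), and 3 had none (spp-1, spp-5 and spp-18).

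Saposin-like proteins are small, disulfide-bonded proteins that bind membrane lipids. In mammals the saposins are cut from a precursor, prosaposin, and help lysosomal enzymes to reach sphingolipids. In C. elegans several members of the family are called caenopores, which open pores in bacterial membranes. Some of them are made in the intestine, where they act on ingested bacteria. spp-9 is known as a gene held down by the TGF-β-like ligand DBL-1, and a reporter driven by its promoter is used to read that pathway.

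Whole, untreated animals of 5 strains were sequenced from total RNA, with 2 libraries per strain, 10 libraries altogether. One strain was wild type (WT), one carried unc-104(R9Q) alone, and 3 had a further change on top of R9Q: unc-104(R9QT102I), unc-104(R9QG265R) and unc-104(R9Q);unc-16. UNC-104 is the kinesin motor for synaptic vesicle precursors, and UNC-16 is a JNK scaffold protein that binds kinesin. These 3 double mutants, all with R9Q, are named by their further change as T102I, G265R and unc-16. The comparisons share libraries, since WT enters 4 of the 10 pairs of strains and R9Q enters 4. The sources used here name neither the unc-16 allele nor the age or stage of the animals. They do not say whether replicates were separate cultures, and p-values then measure only the spread between these samples, which may be technical.

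The tables held 6239272 to 7160785 reads per library assigned to 1 transcript, and a count of 0 allowed up to 3 counts. This limit came to 0.419 to 0.481 CPM, the count scaled to a common library size. For this limit alone CPM was taken on the assigned reads, without the TMM factors that scale the other CPM values. unc-104 had 0 counts in all 10 libraries and unc-16 had 228 over all of them, so neither gene checks the labels. In 7 libraries 1.58 to 5.51% of counts were on mitochondrial genes, while the first library of T102I (replicate 1) and the second of G265R and of unc-16 (replicate 2) stood apart with 0.0194 to 0.0238%. Replicates were much closer in WT and R9Q (median biological coefficient of variation 0.0707) than in the double mutants (0.483). All strains were fitted together (0.363 over all 10 libraries), so p-values of comparisons between double mutants can be too small and those of R9Q against WT too large. Of 16 molting genes 14 had counts (noah-1 and mlt-11 had none), and their median was at 1.06 to 1.83 CPM in WT and R9Q, 38.4 and 44.1 CPM in T102I, 1.84 and 32.1 CPM in G265R, and 6.37 and 151.8 CPM in unc-16. Of 6 yolk protein genes of the adult intestine 4 had counts (vit-2 and vit-6 had none), which summed to 0.777 to 14.4 CPM per library. Reads shared by several transcripts were left uncounted, so a low count of a marker gene need not measure its level. The part of stage or molting in the levels below was not tested.

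**Figure D1:**
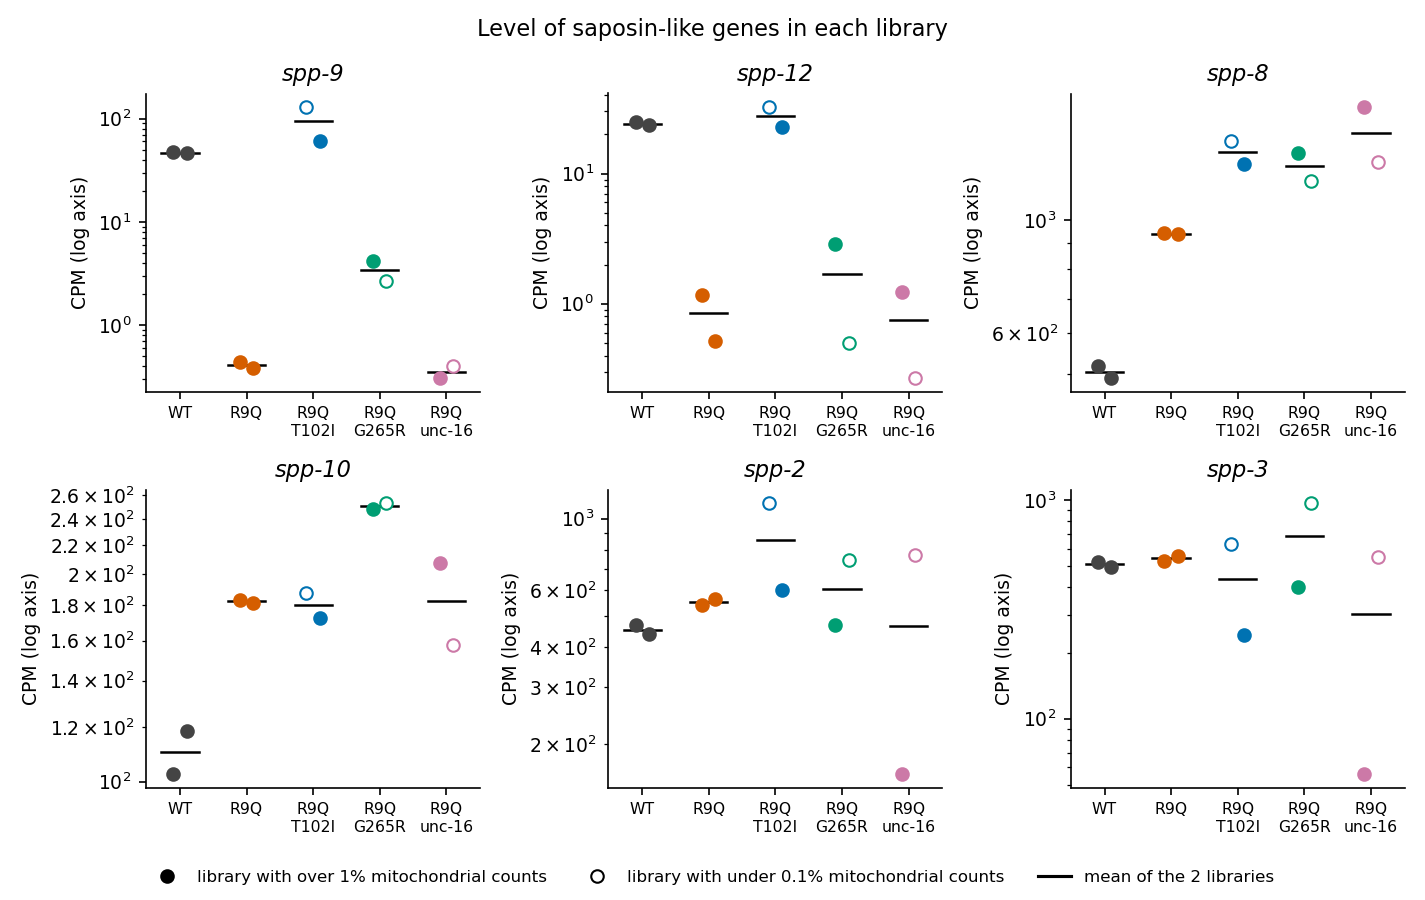
Level of 5 measured saposin-like genes and of spp-12, a family member outside the set, in each library in CPM (log axes), by strain, with the mean of the 2 libraries as a bar; open circles are the 3 libraries with under 0.1% mitochondrial counts. spp-9 and spp-12 were high in WT and T102I and low elsewhere, while spp-8 and spp-10 were lowest in WT.

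spp-9 (WBGene00004994; chromosome X, 11487784 to 11488203, ce11) has a single transcript with 373 exon bases and shares no exon base with another gene. It was at 47.0 and 46.0 CPM in the WT libraries and at 0.440 and 0.387 CPM in R9Q, where each library held 3 counts. In the T102I libraries it was at 129.1 and 61.0 CPM. The G265R libraries lay between these levels, at 4.16 and 2.68 CPM, and the unc-16 libraries were as low as R9Q, at 0.307 and 0.402 CPM.

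Ordered by their means, the strains ran from T102I (95.03 ± 48.1 CPM, SD, n = 2) over WT (46.5 ± 0.707 CPM) and G265R (3.42 ± 1.04 CPM) to R9Q (0.414 ± 0.0379 CPM) and unc-16 (0.354 ± 0.0669 CPM). The libraries of neighbouring strains in this order overlapped only between R9Q and unc-16. The lower T102I library was thus above both WT libraries, and the lower G265R library was above both R9Q libraries. The log2 fold change was -6.75 for R9Q against WT and 7.78 for T102I against R9Q, both from the values that chose the gene. It was 1.03 for T102I against WT, -3.75 for G265R against WT, 3.0 for G265R against R9Q and -6.95 for unc-16 against WT.

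On summed counts, R9Q held 6 spp-9 reads and WT 605, which at equal depth made WT 112.9 times as high, and T102I held 1249 reads, 226.6 times the R9Q level; both ratios are descriptions of the values that chose the gene. G265R held 42 reads, 8.36 times the R9Q level and 0.074 times the WT level. unc-16 held 5 reads, 0.869 times the R9Q level, a ratio that rests on 5 and 6 reads. The ratios of G265R and unc-16 also use the R9Q or WT reads that chose the gene, so they are descriptions with no test. Without T102I replicate 1, the T102I library with few mitochondrial counts, the log2 fold change of T102I against R9Q was 7.11, and without T102I replicate 2 it was 8.23.

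**Figure D2:**
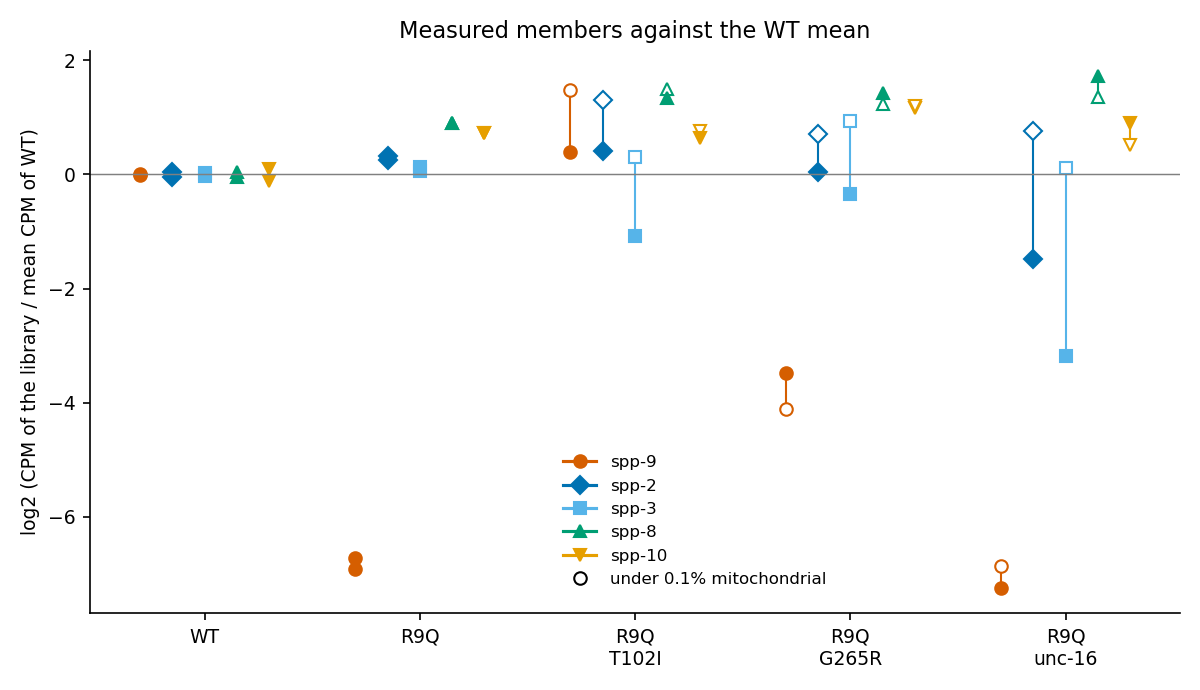
Level of each measured member in each library as the log2 ratio of its CPM to the WT mean, by strain; lines join the 2 libraries of a strain and open symbols are libraries with under 0.1% mitochondrial counts. spp-9 runs from -7.24 to 1.47 over the libraries, while the other 4 members stay between -3.19 and 1.72.

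The saposin-like genes spp-2 and spp-3 lie side by side on chromosome X, with 641 bases between them, in a run that continues with spp-6, spp-4 and spp-5. SPP-3 is known as an antimicrobial protein of the worm intestine. Over its exon length spp-3 was the most abundant in WT and R9Q of the 18 spp genes that could be tested, at 1482 ± 48.8 CPM per kb of exon in WT and 1585 ± 60.5 in R9Q (SD, n = 2). spp-2 came next at 918.5 ± 42.1 and 1121 ± 33.7 CPM per kb. In T102I the mean of spp-2 was above that of spp-3 (1745 and 1272 CPM per kb), and in unc-16 spp-8 had the highest of the 3 means (1140, against 946.5 for spp-2 and 883.9 for spp-3).

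spp-2 (WBGene00004987; chromosome X, 7315995 to 7316818, ce11) was at 466.6 and 437.3 CPM in WT and at 540.0 and 563.5 CPM in R9Q. It was at 1118 and 599.8 CPM in T102I, 465.9 and 743.2 CPM in G265R, and 160.9 and 770.5 CPM in unc-16. The R9Q libraries lay above the WT libraries by a small margin, and the double mutants spread on both sides of them. The log2 fold change was 0.29 for R9Q against WT and 0.64 for T102I against R9Q, which chose the set, and 0.93 for T102I against WT (SE 0.65, edgeR quasi-likelihood adjusted p = 0.696). With a term for the libraries with few mitochondrial counts, the value of T102I against R9Q was -0.052.

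spp-3 (WBGene00004988; chromosome X, 7314969 to 7315353, ce11) was at 520.1 and 496.4 CPM in WT and 529.0 and 558.3 CPM in R9Q. It was at 631.2 and 241.5 CPM in T102I, 400.4 and 970.9 CPM in G265R and 55.7 and 550.6 CPM in unc-16. WT and R9Q were close, and the lowest library of all was unc-16 replicate 1. The log2 fold change of unc-16 was -0.84 against R9Q (SE 0.92, edgeR adjusted p = 0.685) and -0.75 against WT (SE 0.92, edgeR adjusted p = 0.684). Without unc-16 replicate 1 these values were 0.062 and 0.16, and without unc-16 replicate 2 the value against WT was -3.20, which rests on the 1 remaining unc-16 library.

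Both genes were higher in the library with few mitochondrial counts than in its partner in all 3 double mutants. The ratio for spp-2 was 1.86 in T102I, 1.6 in G265R and 4.79 with unc-16. For spp-3 it was 2.61 in T102I, 2.42 in G265R and 9.88 with unc-16. Among the 18 spp genes tested, 11 were higher in that library in all 3 strains and 0 were lower in all 3; over all 12267 genes tested 24.7% were higher and 27.3% lower in all 3. The part of these libraries in the levels of spp-2 and spp-3 was not tested.

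spp-8 and spp-10 are neighbours on chromosome IV with 1007 bases between them. spp-10 codes for a worm homologue of mammalian prosaposin, the lysosomal precursor protein. Both genes had more counts in every library that carried R9Q than in either WT library.

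spp-8 (WBGene00004993; chromosome IV, 8481664 to 8483621, ce11) was at 517.4 and 490.5 CPM in WT and 942.3 and 937.7 CPM in R9Q. It was at 1427 and 1284 CPM in T102I, 1354 and 1193 CPM in G265R and 1661 and 1298 CPM in unc-16. WT, R9Q and the double mutants formed 3 levels that did not overlap, and the double mutants overlapped among themselves. The log2 fold change was 0.90 for R9Q against WT and 0.53 for T102I against R9Q, given as a description.

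Of the 32 pairs of a tested member (spp-2, spp-3, spp-8 or spp-10) and a comparison that did not choose the set, 1 was called at an adjusted p under 0.05. This was spp-8, which rose in unc-16 against WT (log2 fold change 1.55, SE 0.23, edgeR adjusted p = 0.0183; 95% interval 0.97 to 2.14), in a comparison where 4.46% of 12267 genes were called and 2.27% were called higher. Against WT, spp-8 had a log2 fold change of 1.43 in T102I (SE 0.23, edgeR adjusted p = 0.0918; 0.0978% of genes called) and 1.34 in G265R (SE 0.23, edgeR adjusted p = 0.0653; 0.465% called). Against R9Q it had one of 0.65 in unc-16 (SE 0.22, edgeR adjusted p = 0.177; 0.668% called) and 0.44 in G265R (SE 0.22, edgeR adjusted p = 0.642; 0% called). In this last comparison edgeR called no gene, 1069 genes had an unadjusted p under 0.05, and DESeq2 called 229. The call in unc-16 was lost with either WT library left out (adjusted p = 0.225 without WT replicate 1 and 0.241 without WT replicate 2), with either R9Q library left out (0.0744 without R9Q replicate 1 and 0.0732 without R9Q replicate 2), and with the 4 libraries of the comparison alone (0.143). In the 7 libraries with over 1% mitochondrial counts spp-8 was called against WT in all 3 double mutants, with log2 fold changes of 1.32 (T102I), 1.41 (G265R) and 1.76 (unc-16). There each double mutant is 1 library, assumed to vary as WT and R9Q do, and 36.6 to 54.2% of all genes were called in these comparisons.

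spp-10 (WBGene00004995; chromosome IV, 8477180 to 8480656, ce11) was at 102.5 and 118.4 CPM in WT and at 183.2 and 181.8 CPM in R9Q. It was at 187.6 and 172.9 CPM in T102I, 248.3 and 253.4 CPM in G265R and 207.3 and 158.0 CPM in unc-16. G265R was the highest strain and did not overlap with unc-16, the next in order, while unc-16, R9Q and T102I overlapped. The log2 fold change against WT was 0.72 in R9Q, as a description, 1.18 in G265R (SE 0.20, edgeR adjusted p = 0.0677), 0.73 in unc-16 (SE 0.20, edgeR adjusted p = 0.0827) and 0.71 in T102I (SE 0.20, edgeR adjusted p = 0.294). Its 2 transcripts were counted separately. The longer, b, held 11852 of its reads on 694 exon bases of its own and the shorter, a, 241 reads on 145, so the level of spp-10 per exon length (72.7 ± 7.4 CPM per kb in WT) is understated against single-transcript genes such as spp-8 (388.2 ± 14.6).

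**Figure D3:**
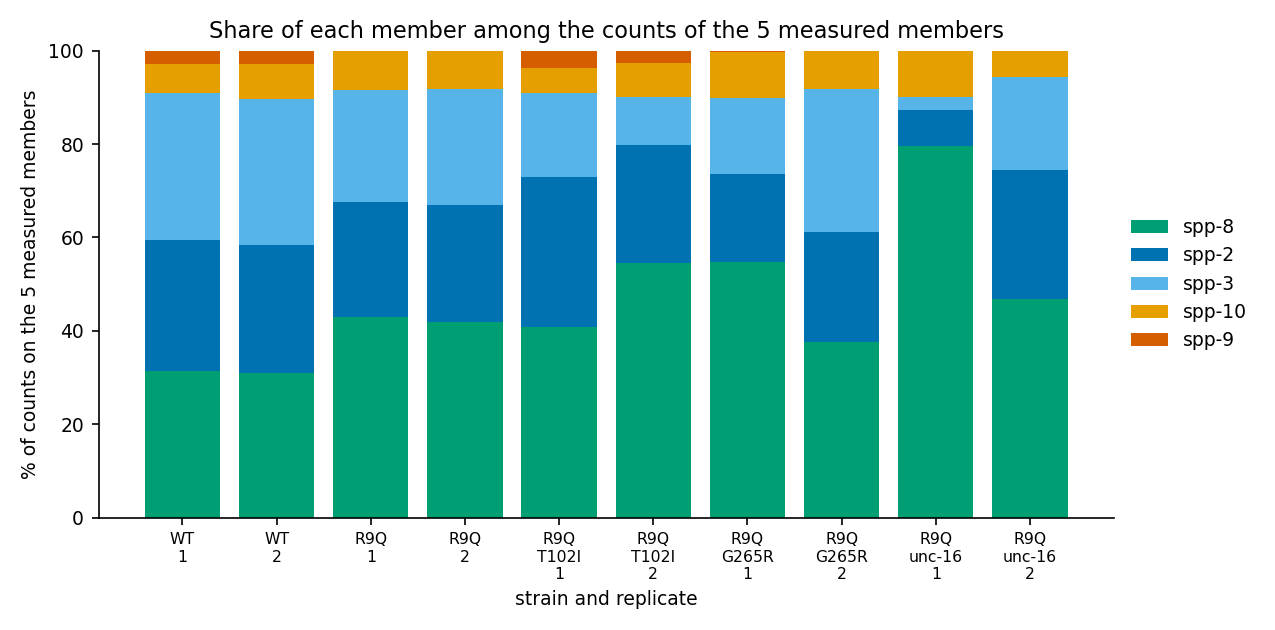
Share of each of the 5 measured members in the reads counted on all 5 of them, in percent, for each library. spp-9 makes up 2.59 to 3.7% in the WT and T102I libraries and 0.0145 to 0.168% elsewhere, and spp-8 makes up 79.7% in unc-16 replicate 1.

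Taken as a share of the reads on the 5 measured members, spp-8 went from 31.3 and 30.9% in WT to 42.9 and 41.8% in R9Q. It was at 40.9 and 54.4% in T102I, 54.7 and 37.7% in G265R, and 79.7 and 46.7% in unc-16. spp-3 held 31.5 and 31.3% in WT, 24.1 and 24.9% in R9Q and only 2.67% in unc-16 replicate 1. The ratio of spp-8 to spp-10 reads was 5.05 and 4.14 in WT, 5.14 and 5.16 in R9Q, and 8.01 and 8.22 in unc-16. It was 7.6 and 7.43 in T102I and 5.45 and 4.71 in G265R. The ratio was thus higher in both unc-16 and both T102I libraries than in any WT, R9Q or G265R library.

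The remaining members could not be measured. spp-1 and spp-5, whose products are pore-forming caenopores, and spp-18 had 0 counts in every library, and spp-14 had 21 counts in all, 0 to 6 per library. The tables list 2 transcripts each for spp-1, spp-5 and spp-14 and 3 for spp-18, and reads shared by several transcripts were left uncounted. Of the 21 spp genes with 1 transcript in the tables all had counts, and of the 10 with more than 1 transcript 6 had none. The 0 counts therefore do not measure the level of these genes.

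**Figure D4:**
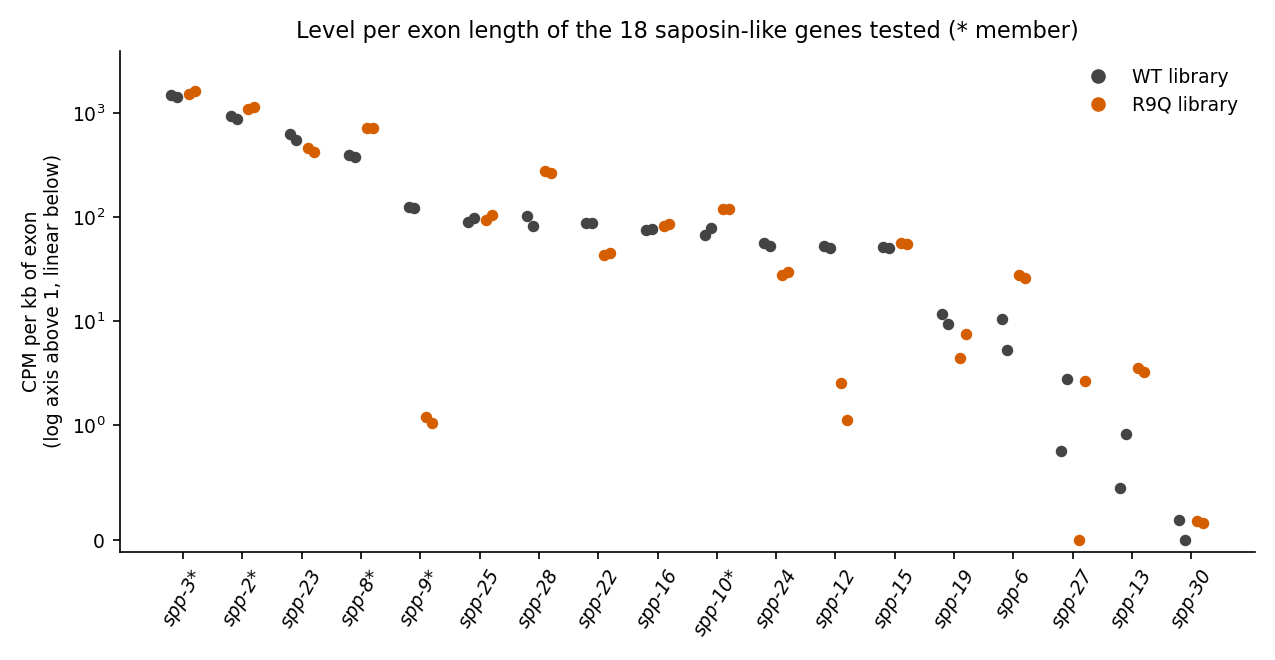
Level of the 18 saposin-like genes that passed the count filter, in CPM per kb of exon (log axis above 1, linear below), in the WT and R9Q libraries; members are marked with an asterisk and ordered by their WT mean. spp-9 falls from 124.6 to 1.11 and spp-12 from 51.8 to 1.81 CPM per kb between WT and R9Q.

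Outside the set, 22 further genes carry an spp symbol, of which 13 passed the count filter, 6 had counts below it and 3 had none. In unc-16 against WT 1 of the 13 was called, spp-12, where 4.46% of all genes were called. None was called in R9Q against WT (0.31% of genes called), T102I against R9Q (0.562%), G265R against R9Q (0%), unc-16 against R9Q (0.668%), T102I against WT (0.0978%) or G265R against WT (0.465%), nor between double mutants (T102I against G265R with 0.0978% called, T102I against unc-16 with 0.783% and G265R against unc-16 with 0.0897%). Their median log2 fold change was 0.06 in R9Q against WT and 0.20 in T102I against R9Q, where the median of all genes was 0.0015 and -0.0045. In both comparisons the largest change among the 13 was that of spp-12, singled out here after its values were seen. In a fit of the 4 WT and R9Q libraries alone, 8 spp genes outside the set were called in R9Q against WT, where 37.7% of all genes were called.

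spp-12 (WBGene00004997; chromosome V, 13889816 to 13890327, ce11), another caenopore gene, was at 24.8 and 23.6 CPM in WT and 1.17 and 0.516 CPM in R9Q. It was at 32.4 and 22.9 CPM in T102I, 2.88 and 0.503 CPM in G265R and 1.23 and 0.268 CPM in unc-16. The libraries of WT and T102I overlapped, as did those of R9Q, G265R and unc-16, and every WT and T102I library was above all the others. spp-12 fell in unc-16 against WT (log2 fold change -5.01, SE 0.91, edgeR adjusted p = 0.0302), where 2.19% of genes were called lower. It had a log2 fold change of -4.82 in R9Q against WT (SE 0.89, edgeR adjusted p = 0.0981) and 5.02 in T102I against R9Q (SE 0.90, edgeR adjusted p = 0.0666), neither of them called, and 5.20 in T102I against unc-16 (SE 0.91, edgeR adjusted p = 0.0556). DESeq2 called the first of these (adjusted p = 1.89e-06, with 2.03% of genes called) and the second (3.37e-07, with 3.83% called). An edgeR fit with a term for the libraries with few mitochondrial counts also called the first (0.0205, with 1.83% called) and the second (0.0135, with 4.02% called). Of 20 alternative settings, 13 left the first uncalled and 11 left the second uncalled. The unc-16 call was lost with the 4 libraries of the comparison alone (adjusted p = 0.126) and when a WT, R9Q or T102I library was left out (0.0597 to 0.212).

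spp-9 and spp-12 are on different chromosomes. In G265R spp-9 was above R9Q in both libraries, while spp-12 was at 2.88 and 0.503 CPM against 1.17 and 0.516 CPM. Summed over 2 libraries, spp-12 had 21 reads in G265R and 12 in R9Q, a ratio of 2.09 with a 95% exact counting interval from 0.982 to 4.66. This interval covers counting error only. The nearest spp gene to spp-9, spp-21, lies 1926 bases away and had 34 reads in all, 13 and 3 in WT, 1 and 2 in R9Q and 8 and 3 in T102I, too few to pass the filter.

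**Figure D5:**
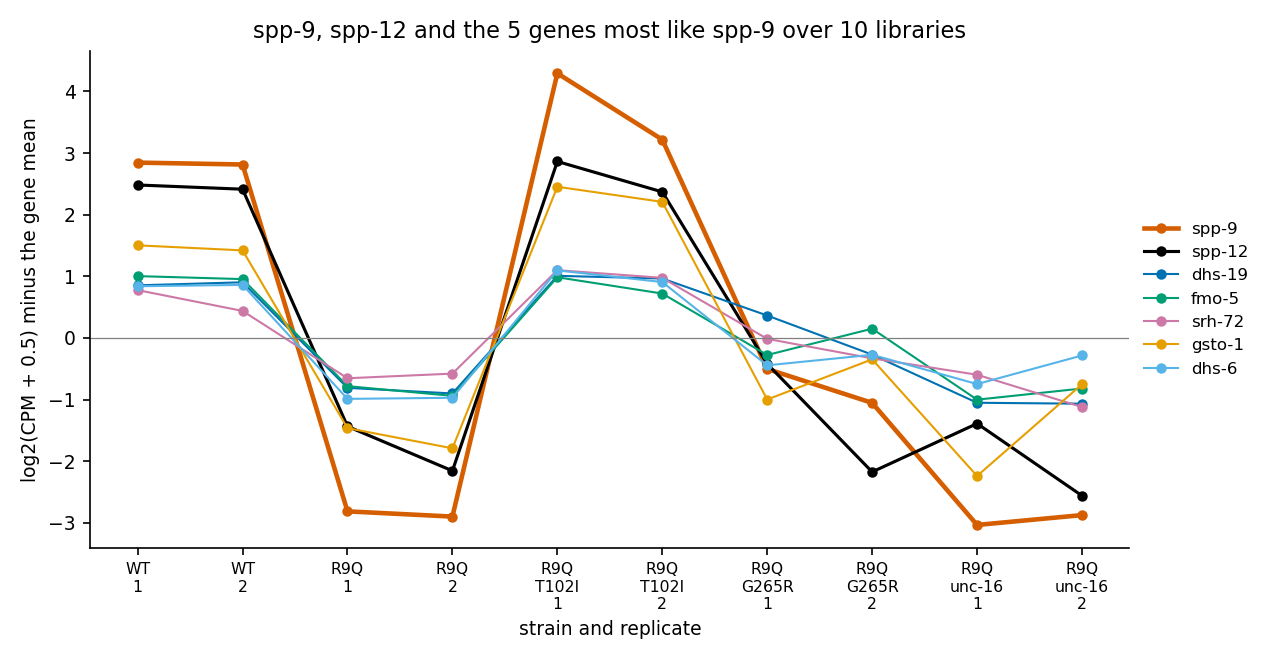
Level of spp-9, spp-12 and the 5 genes with the pattern most like spp-9, as log2(CPM + 0.5) minus the mean of the gene over 10 libraries, by strain and replicate. The 5 are from the tested genes with a symbol of letters and a number. Lines only guide the eye. The 5 genes follow spp-9 over a smaller range, and G265R lies between the low and the high libraries for most of them.

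Over the 10 libraries, the level of spp-9 on the log2(CPM + 0.5) scale had a Pearson r of 0.96 with spp-12. By r, spp-12 ranked 7 among 6092 genes outside the set, which were the tested genes with a symbol of letters and a number. The rest of the 12267 tested genes were not ranked. With the other measured members r was 0.35 (spp-2), 0.19 (spp-3), -0.34 (spp-8) and -0.44 (spp-10). spp-2 and spp-3 had r = 0.84 with each other, and spp-8 and spp-10 had r = 0.81. The libraries fall into the same strains for every gene, so these values describe the pattern over 5 strains and 10 libraries and carry no p.

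Among the genes ranked, the 5 most like spp-9 were the short-chain dehydrogenase gene dhs-19 (r = 0.97), the flavin monooxygenase gene fmo-5 (0.97), the chemoreceptor gene srh-72 (0.97), the omega-class glutathione transferase gene gsto-1 (0.97) and the short-chain dehydrogenase gene dhs-6 (0.96). dhs-19 was at 426.8 ± 10.4 CPM in WT, 128.1 ± 5.72 in R9Q, 459.9 ± 9.85 in T102I, 245.4 ± 75.3 in G265R and 111.0 ± 0.824 with unc-16 (SD, n = 2). gsto-1, with the widest range of the 5, was at 221.7 ± 8.91 CPM in WT, 25.8 ± 4.21 in R9Q, 406.6 ± 48.9 in T102I, 51.4 ± 16.3 in G265R and 32.0 ± 21.8 with unc-16. None of the 5 came as near to 0 in R9Q as spp-9 did.

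Genes that work beside saposins or act on spp-9 were read from lists. Of 11 glycosphingolipid and ceramide hydrolase genes 5 were tested, and in unc-16 against WT, where 4.46% of all genes were called and 2.27% were called higher, 2 rose: asah-2, of the acid ceramidase family (log2 fold change 1.24, edgeR adjusted p = 0.0276), and the acid sphingomyelinase gene asm-2 (0.81, edgeR adjusted p = 0.048). asm-2 also rose in unc-16 against R9Q (1.18, edgeR adjusted p = 0.0392; 0.668% of genes called). No gene of the list was called in the other 8 comparisons, in which 0 to 0.783% of all genes were called. Of 13 lysosomal protease genes 8 were tested, and the cathepsin B-like gene cpr-3 fell in unc-16 (-1.69, edgeR adjusted p = 0.00997; 2.19% of genes called lower) and in T102I (-1.98, edgeR adjusted p = 0.036; 0.0978% called) against WT. The cathepsin D-like gene asp-4 rose in unc-16 against WT (1.36, edgeR adjusted p = 0.0206; 2.27% of genes called higher). Each of these 6 calls was lost when either WT library was left out. With the 4 libraries of a comparison alone, 0 genes were called in unc-16 against WT and 0 in unc-16 against R9Q. The list calls in unc-16 were thus lost there too. In R9Q against WT the protease list had a median of -0.77 with 1 of 8 genes above 0, and 0 called. Over all genes the median was 0.0015, 50.1% were above 0 and 0.31% were called. The list median against R9Q was 1.04 for T102I, 1.0 for G265R and 1.09 for unc-16 (all genes: -0.0045, 0.014 and -0.045). Of the 8 genes 7, 8 and 7 were above 0 there, and 0 were called. cpr-5 of the list was at 1309 and 1252 CPM in WT, 73.2 and 62.4 in R9Q and 1472 and 1266 in T102I. Its G265R libraries had 336.7 and 1610 CPM, and those of unc-16 175.4 and 1510 CPM.

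Of the 10 genes of DBL-1 signalling 4 were tested (sma-3, sma-6, sma-9 and lon-2). In the 10 comparisons 0 of them were called, where 0 to 4.46% of all genes were called, so 0 of 4 is near the share over all genes. Their medians were -0.31 in R9Q against WT and -0.08 in T102I against R9Q, where the medians of all genes were 0.0015 and -0.0045. The ligand gene dbl-1 had 0 to 0.284 CPM per library and the other 5 genes were too low to test. Reads shared by several transcripts were left uncounted, so these low counts need not measure the level of the genes. Of 11 intestinal marker genes 10 had counts (act-5 had none), and they summed to 2059 and 2100 CPM in WT, 3942 and 3903 CPM in R9Q, 1977 and 2176 CPM in T102I, 12028 and 2111 CPM in G265R, and 6317 and 1302 CPM in unc-16. The peptide transporter gene pept-1 made up most of the larger sums, with 3054 and 3014 CPM in R9Q against 1116 and 1151 CPM in WT. The gut transcription factor gene elt-2 was at 159.3 and 159.7 CPM in WT and 170.7 and 172.5 CPM in R9Q. Other markers were lower in R9Q, such as ifb-2 (12.9 and 13.2 CPM in WT, 6.60 and 5.41 in R9Q) and ifc-2 (284.0 and 271.7 CPM in WT, 208.1 and 207.2 in R9Q). Of the 7 intestinal markers tested, 3 had a log2 fold change above 0 in R9Q against WT. Their median was -0.096 and 0 were called, where 0.31% of all genes were called. The part of intestinal RNA in the levels of the spp genes was not tested. In whole animals, fewer cells of a type and less RNA per cell cannot be told apart.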

How the data were processed

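RNA-seq libraries of whole C. elegans animals were analysed from the authors' deposited raw counts per transcript. Per the submitters' processing notes, Trim Galore 0.4.4, STAR 2.5.4b, HTSeq 0.9.1 and build ce11 were used; the sources used here name neither the strand setting nor the annotation release. The 5 summary entries of each table were left out; reads in more than 1 transcript, uncounted, were 57.7 to 61.8% of aligned reads. Of 61451 transcripts 56781 were matched by identifier and 4581 by sequence name to Ensembl release 115 (WBcel235, the same assembly as ce11), 89 kept their own name, and counts were summed per gene. All 10 libraries were fitted with edgeR 4.0.16 in R 4.3.3: filterByExpr with a minimum count of 10 (12267 genes), TMM factors, a term per strain, glmQLFTest with 5 residual degrees of freedom, Benjamini-Hochberg over all genes, threshold 0.05. CPM values use the TMM factors, apart from the limit given for a count of 0. The code was tested on simulated data. Each SE was computed from the fold change and its test statistic. By rule, genes named are the set, other spp genes with a count, the 5 genes most like spp-9, called members of the lists, unc-104 and unc-16. Likeness to spp-9 was ranked by Pearson r over tested genes outside the set with a symbol of letters and a number. Other list and marker genes, and spp-4 for its position, were named after their values were seen. The members and lists were chosen with earlier results of these data known. Alternatives were DESeq2 1.42.0 and its size factors, other filters and library sizes, fewer libraries, a library-set term, the top transcript of each gene and a replicate block.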

Additional observations from a re-analysis of the deposited data

Results flagged for a closer look

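spp-9 moved in opposite directions against WT: both T102I libraries lay above both WT libraries (log2 fold change 1.03), while both libraries of R9Q (-6.75), G265R (-3.75) and unc-16 (-6.95) lay below them. The difference between these strains was not tested, since spp-9 was chosen for this pattern, and the T102I value was 0.36 without T102I replicate 1.

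spp-28, a saposin-like gene outside the set, went the other way: both libraries of R9Q (1.54) and of G265R (1.47) lay above both WT libraries and both T102I libraries below them (-0.53). The difference of T102I from G265R was -1.99 on the log2 scale (SE 0.46, edgeR adjusted p = 0.262), which was not called. DESeq2 gave an adjusted p of 0.00677 (1.58% of genes called). An edgeR fit with a term for the library set gave one of 0.00985 (1.11% called). This difference stayed uncalled under 16 of the 20 alternatives.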

How the results depend on the processing

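spp-9 was chosen on R9Q against WT and T102I against R9Q, so that its log2 fold changes there under the 20 alternatives (-6.84 to -6.66, the ends being those without an R9Q library, and 7.11 to 8.23) only describe how far a setting moved them. Of 32 tested pairs of a member and a comparison, 16 changed sign under at least 1 alternative (spp-2 in 6 of 8, spp-3 in 7 of 8, spp-10 in 2 and spp-8 in 1); the cause was not tested. Counts of called members (of 4) moved as follows, with the share of all genes called in brackets. With a term for the library set there were 2 in unc-16 against R9Q (12.5%). Against WT that term gave 1 in T102I (3.2%), 2 in G265R (5.44%) and 3 with unc-16 (20.5%). DESeq2 gave 1 in unc-16 against R9Q (9.15%). Against WT DESeq2 gave 1 in T102I (2.98%), 2 in G265R (3.72%) and 2 with unc-16 (13.5%). No count filter gave 1 in T102I (2.39%) and 2 in G265R (2.9%) against WT and 1 in G265R against unc-16 (2.5%). The 4 libraries of a comparison alone gave 1 in T102I (4.07%) and 0 in unc-16 (0%) against WT. Without the libraries with few mitochondrial counts the number moved in every tested comparison. Fewer libraries and the spread of WT and R9Q alone enter that fit, and each double mutant is 1 library, so its counts of called members are not given here. Leaving out 1 library moved the number in T102I, G265R and unc-16 against WT and in T102I against unc-16. Named values that crossed 0 were spp-2 in T102I against R9Q (-0.052 with the term for the library set), spp-9 in unc-16 against R9Q (-0.20, and 0.0057 without unc-16 replicate 1), spp-3 in unc-16, which ran from -3.30 to 0.062 against R9Q and from -3.20 to 0.16 against WT with 1 library left out (the upper ends without unc-16 replicate 1), and spp-12 in T102I against WT, from -0.11 to 0.43 with 1 library left out and -0.11 without the libraries with few mitochondrial counts.

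The replicate numbers did not pair the samples. The correlation of deviations between strains was -0.029 to 0.025 for pairs with WT or R9Q. Among double mutants it was -0.64 (T102I and G265R), -0.46 (T102I and unc-16) and 0.61 (G265R and unc-16). The library with few mitochondrial counts was replicate 1 in T102I and replicate 2 in G265R and unc-16. Its part in these correlations was not tested. With a replicate block, spp-9 had -6.77 in R9Q against WT and spp-8 stayed called in unc-16 against WT (adjusted p = 0.0405), but genes called over the whole table fell from 38 to 3 in R9Q against WT and from 547 to 218 in unc-16 against WT. With 3 reads per library, the R9Q level of spp-9 rests on counts at the floor.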

Other observations

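Several saposin-like genes outside the set had levels in some libraries far from those in the others. spp-13 was at 53.8 CPM in unc-16 replicate 2 and 0 to 10.1 CPM in the other 9 libraries, and spp-27 at 11.8 CPM in the same library and 0 to 2.3 CPM elsewhere. spp-25 was at 1.42 CPM in T102I replicate 1 and 1.34 CPM in G265R replicate 2, both libraries with few mitochondrial counts, and at 9.52 to 47.2 CPM in the other 8. spp-23 was at 639.4 CPM in G265R replicate 2 and 121.4 CPM in its partner. None of these genes was called in any comparison (edgeR, adjusted p under 0.05).

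spp-22 and spp-24 were lower in both R9Q libraries than in both WT libraries, at 21.9 and 23.0 CPM against 44.8 and 45.0 CPM for spp-22 and at 18.1 and 19.3 CPM against 36.3 and 34.2 CPM for spp-24. Neither was called in R9Q against WT (log2 fold change -1.0, edgeR adjusted p = 0.887, and -0.91, edgeR adjusted p = 0.818), and both were with the 4 libraries alone (1.08e-07 and 3.05e-06), where 37.7% of genes were called. Unlike spp-9 and spp-12, they were not back at the WT level in T102I, at 34.5 and 23.6 CPM for spp-22 and 23.8 and 19.2 CPM for spp-24.

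spp-15 and spp-16, which overlap a gene on the other strand by 243 of 566 and 170 of 596 exon bases, had r = 0.96 and 0.93 with spp-2 over the 10 libraries. Their counts are uncertain, since the strand setting of the counting was not given.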
